A study of Drosophila melanogaster with 3 samples.

Results

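Cytoplasmic ribosomal protein genes encode the proteins of the large and small subunits of the ribosome that translates nuclear messenger RNAs. They were taken as the protein-coding genes of the Ensembl BDGP6 annotation of Drosophila melanogaster whose symbol is RpL or RpS followed by a number and optional letters, RpLP followed by a digit, or sta. The rule gave 86 of 13968 protein-coding genes, 48 of the large and 38 of the small subunit, and used no measured value. The data were chromatin immunoprecipitation sequencing (ChIP-seq) peak lists for Trem, a zinc finger protein known in flies for its part in forming the DNA double-strand breaks of meiosis. All 3 biological replicates belonged to 1 group: whole embryos of 0 to 14 hours, both sexes pooled, from a transgenic line carrying Trem with green fluorescent protein fused to its C terminus. An anti-GFP antibody was used according to the description, while another label names trem as the antibody. A control from flies lacking the fusion was not analysed here, so signal that any protein may give at active promoters cannot be told apart from binding by Trem. In whole embryos, binding in few cells and weaker binding in many cells cannot be told apart either.

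Each ribosome needs 1 copy of nearly every ribosomal protein, so these genes are transcribed strongly and in step in growing cells. In flies most of them start transcription within a run of pyrimidines, the polypyrimidine initiator, in place of the usual initiator sequence. Some ribosomal proteins have a pair of genes, of which one is often the widely expressed copy while the other is used in few tissues, such as the germ line. No expression was measured here.

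The deposited lists comprise 1 list per replicate and 1 pooled list, each of 30000 peaks, and a list of 7477 peaks that passed the irreproducible discovery rate (IDR) procedure across replicates. Depth is unknown, since the lists hold no read counts. The signal value is the authors' value per peak and was compared only within a list, where rank 1 is the strongest peak. A gene is said below to have a peak when a summit was at most 500 bp from one of its transcription start sites (TSSs) in the annotation, and its value is that of the strongest such peak. Coordinates are on dm6, counted from 1.

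The sequences under 5 of the summits are shown first because the motif results below turn on them. The letters are those of the RefSeq genome of the dm6 assembly, read on the strand of the ribosomal protein gene toward its start site, up to 75 bp on each side of the summit and without transcribed sequence. Capitals mark 3 kinds of match. The 8-mer CTGCCAAC, or GTTGGCAG on the other strand, was the most enriched 8-mer among the 200 strongest IDR peaks away from ribosomal protein genes. Its last 7 letters TGCCAAC, searched on both strands, are capitals also where the full 8-mer is not present. TATCGATA is the core of the DNA replication-related element (DRE), known as the site of the factor DREF. GGTCACAC, or GTGTGACC on the other strand, is the core of Motif 1, known as the site of M1BP. RpL28 and RpS28a are shown as strong peaks with the 8-mer or its last 7 letters, and RpS28b as the paralogue of RpS28a. RpS25 and RpL27 are shown as peaks with the DRE or with both the DRE and Motif 1.
RpL28, chr3L:3222995-3223145, minus strand: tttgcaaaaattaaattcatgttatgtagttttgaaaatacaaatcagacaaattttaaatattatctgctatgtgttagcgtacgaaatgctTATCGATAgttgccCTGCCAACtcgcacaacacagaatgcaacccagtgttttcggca
RpS28a, chr3R:30022712-30022841, minus strand: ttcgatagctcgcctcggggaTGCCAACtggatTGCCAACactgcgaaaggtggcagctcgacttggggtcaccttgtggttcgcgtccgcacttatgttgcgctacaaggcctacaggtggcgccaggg
RpS28b, chrX:9554457-9554607, plus strand: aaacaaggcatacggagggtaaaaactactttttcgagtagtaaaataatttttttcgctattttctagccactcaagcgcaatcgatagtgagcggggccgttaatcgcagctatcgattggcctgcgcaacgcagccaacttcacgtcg
RpS25, chr3R:11216331-11216481, minus strand: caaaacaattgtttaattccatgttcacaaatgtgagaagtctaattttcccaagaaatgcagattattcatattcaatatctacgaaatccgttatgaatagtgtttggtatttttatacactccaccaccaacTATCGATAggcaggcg
RpL27, chr3R:25685052-25685181, minus strand: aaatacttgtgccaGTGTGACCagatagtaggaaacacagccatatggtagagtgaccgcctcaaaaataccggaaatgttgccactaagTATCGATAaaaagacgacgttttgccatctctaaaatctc

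Nearly all ribosomal protein genes had a Trem-eGFP peak at their start site. Of the 86 genes 80 had an IDR peak, beside 41.7% of all protein-coding genes, and 85 had a pooled peak, beside 58.8% of all. Among the 7477 strongest peaks of each replicate, 80 genes had a peak in replicate 1, where 40.6% of all genes did. Replicate 2 gave 75 genes, beside 41.4% of all, and replicate 3 gave 81 genes, beside 40.4% of all. The mean was 91.5% ± 3.74 of the ribosomal protein genes and 40.8% ± 0.498 of all genes (SD, n = 3). In all 3 of these lists 71 genes had a peak, and in the whole replicate lists 83 did.

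The 2 subunits had peaks at like shares, 45 of 48 large subunit genes (93.8%) and 35 of 38 small subunit genes (92.1%). The median rank of the peak was 1510 for the large and 2525 for the small subunit. Among the 7477 strongest peaks of replicates 1, 2 and 3 the medians were 1411, 1619 and 1475 for the large subunit. For the small subunit they were 2820, 1643 and 1887. The order was the same in each replicate, with almost no gap in replicate 2. For all members with an IDR peak the median rank was 1751, against 2746.5 for all genes with one, and the middle 50% of the members lay between ranks 670.75 and 3657.25. Among the 7477 strongest peaks of each replicate the median rank was 1800 ± 262 for the members and 2701 ± 112 for all genes (SD, n = 3). Among the 748 strongest IDR peaks were those of 22 members, or 27.5% of those with a peak, beside 14.7% of all genes with one. At the other end, 19 members (23.8%) ranked after 3738, against 35.4% of all genes with a peak. The member peaks were thus displaced toward the stronger ranks, while the strongest of them came only at rank 84.

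**Figure D1:**
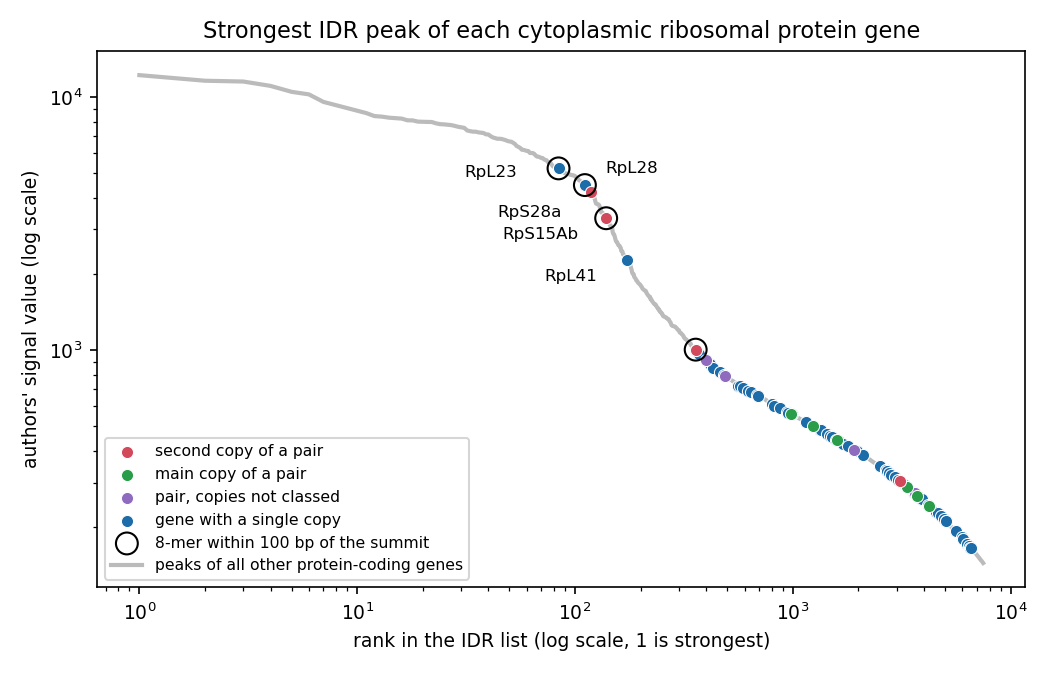
Signal value against rank in the IDR list, both on log scales, for the strongest peak of each of the 80 ribosomal protein genes with an IDR peak; the grey line is the same for all other protein-coding genes, and circles mark an 8-mer within 100 bp of the summit. RpL23, RpL28, RpS28a, RpS15Ab and RpL41 lie apart from the other members, and RpL23, RpL28 and RpS15Ab are among the circled genes.

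The 5 strongest peaks stood apart from the other member peaks in signal. RpL23, which encodes a large subunit protein, had a signal of 5230 and rank 84, with ranks 65, 104 and 97 in replicates 1, 2 and 3. Its gene (FBgn0010078) lies at 2R 22854383 to 22855694, and the summit at 22854263 was 120 bp upstream. RpL28 (FBgn0035422, 3L 3220911 to 3222960) had a signal of 4493 at rank 111, with replicate ranks of 99, 113 and 118 and a summit 110 bp upstream. RpS28a (FBgn0039739, 3R 30022345 to 30022648), the second gene for a small subunit protein, followed with 4212 at rank 118 and replicate ranks of 106, 119 and 122. RpS15Ab (FBgn0033555, 2R 10821676 to 10822399), another second copy, had 3323 at rank 139, and its summit was 18 bp upstream. RpL41 (FBgn0066084, 2R 24903416 to 24903935), which encodes the smallest ribosomal protein, had 2278 at rank 174. No replicate placed any of these 5 below rank 187. The fifth peak had 2.27 times the signal of the sixth. Peaks of other genes lay between them, such as those of CG10638 at 2023 and CG1142 at 1727, so the step is one among members only.

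From the sixth peak on, the signal declined in small steps. RpS25, a protein of the small subunit head, had 1001 at rank 361, and RpL14 had 977 at rank 368. RpL34b had 912 at rank 399. Their ranks in the replicate lists lay between 299 and 482. Each of these peaks and of the 5 strongest was shared, in that the start site of a neighbouring protein-coding gene also lay within 500 bp of the summit. The neighbour was CG13531 for RpL23, the initiation factor gene eIF1 for RpL28, the Wnt pathway gene Axn for RpS28a, Lsm10 for RpS15Ab and the sodium channel gene NaCP60E for RpL41. It was CG4820 for RpS25, Nelf-E, a subunit of the negative elongation factor, for RpL14 and CG8132 for RpL34b. For RpS28a the summit was 55 bp upstream of Axn and 139 bp upstream of RpS28a, so the neighbour was the nearer gene. The same held for RpL41, at 84 bp from NaCP60E and 98 bp from RpL41. At RpS15Ab the summit was 18 bp upstream of both genes.

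The weakest peaks were those of RpL40, RpL17, RpL4 and RpL38. Their signals were 172.3, 168.1, 166.0 and 165.5, near the lowest in the IDR list, 144.4. Among the members farther out in the window was RpL10Ab, with a summit 369 bp upstream, followed by RpS19b at 341 bp. Of the members outside the limit, RpL35 was nearest, 607 bp from an IDR summit, and the next, RpS2, was far from it, at 2392 bp.

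The 6 genes without an IDR peak fell into 2 kinds. RpL15 and RpL35 of the large subunit and RpS2 and RpS6 of the small subunit had a peak in the pooled list and in every whole replicate list, but a weak one. RpL35, whose protein sits near the exit of the peptide tunnel, had a pooled signal of 137.1 at rank 7810 and ranks of 12936, 6315 and 5748 in replicates 1, 2 and 3. RpS2, at the entry of the messenger RNA channel, had 130.6 at rank 8161, with replicate ranks of 9838, 5999 and 4853. RpL15 had 116.7 at rank 8991, with replicate ranks of 7093, 18636 and 9531. RpS6, the substrate of the growth-regulated S6 kinase, had 102.7 at rank 10047, with replicate ranks of 7802, 10623 and 5149. All 4 had a replicate in which they ranked within the strongest 7477, and these ranks overlapped those of the weakest IDR peaks. The other 2 genes, RpL10Aa and RpS10a, are second copies. RpL10Aa had no peak in any list, and its nearest IDR summit was 50416 bp away. RpS10a had a pooled signal of 44.3 at rank 23489, a peak at rank 18378 in replicate 1 and none in replicates 2 and 3.

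Within the ribosome, peaks differed in strength among proteins that work side by side. The genes in this paragraph were picked for their roles, with their values known. The stalk that recruits elongation factors is built from RpLP0, RpLP1 and RpLP2, whose peaks ranked 821, 592 and 1972, with summits 91 bp downstream, 137 bp upstream and 196 bp upstream. RpL5 and RpL11, which enter the ribosome together with 5S ribosomal RNA, ranked 4788 and 1510. RpL3, close to the peptidyl transferase centre, ranked 461, while RpL10, which joins late in assembly, ranked 5049. RpL4, RpL17 and RpL39, which line the exit tunnel, ranked 6530, 6453 and 3554. Of the proteins made as fusions to ubiquitin or a ubiquitin-like protein, RpS30 ranked 948, with its summit at the start site itself, RpS27A 3353 and RpL40 6296. In the small subunit, RpS3 and RpS9 at the messenger RNA entry ranked 1708 and 3877, RpS23 at the decoding centre 3591 and sta, the fly laminin receptor homologue, 1436. RpS12, known in flies for its part in cell competition, ranked 2758, and RpL32, the common reference gene rp49, ranked 562. RpS3A, the single member on chromosome 4, had a peak at rank 3908 with replicate ranks of 2963, 5729 and 4434.

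Further peaks are given by subunit in order of falling signal. In the large subunit RpL13A, RpL19, RpL30, RpL23A, RpL7, RpL22, RpL37A, RpL6, RpL13, RpL27, RpL24, RpL18, RpL12, RpL36, RpL26, RpL31, RpL35A, RpL8, RpL29, RpL27A, RpL9, RpL36A, RpL7A and RpL21 ranked between 432 and 6042. In the small subunit RpS27, RpS29, RpS18, RpS13, RpS21, RpS4, RpS20, RpS16, RpS24, RpS15, RpS7 and RpS26 ranked between 415 and 5950. By chromosome arm, 16 of 17 members on 2L, all 18 on 2R, 13 of 14 on 3L, 20 of 22 on 3R and 12 of 14 on X had an IDR peak. Their median ranks were 786.5 on 3R and between 2034 and 2635 on the other 4 arms. The same values over all genes of each arm are not given, so a difference between arms cannot be assigned to the members.

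The replicates placed the strong peaks alike and the weak ones at differing ranks. Of the 80 IDR summits at members, 71 had a summit within 100 bp in all 3 whole replicate lists and 9 in 2 of them. The largest differences in rank among genes with an IDR peak were at RpS24, RpL21 and RpL5. RpS24 ranked 2820 and 2054 in replicates 1 and 3 and 18421 in replicate 2. RpL21 ranked 3621, 11390 and 6834 in replicates 1, 2 and 3, and RpL5 ranked 3536, 5672 and 11030. In RpS24 and RpL21 the low value was that of replicate 2, and in RpL5 that of replicate 3. Across member genes Spearman's rho between the ranks of 2 replicates was 0.825, 0.847 and 0.848 over 79 or 80 genes, and across all genes with an IDR peak it was 0.787, 0.768 and 0.799. These correlations are across genes, which are not replicates, and all come from peaks that the IDR procedure chose for being alike.

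**Figure D2:**
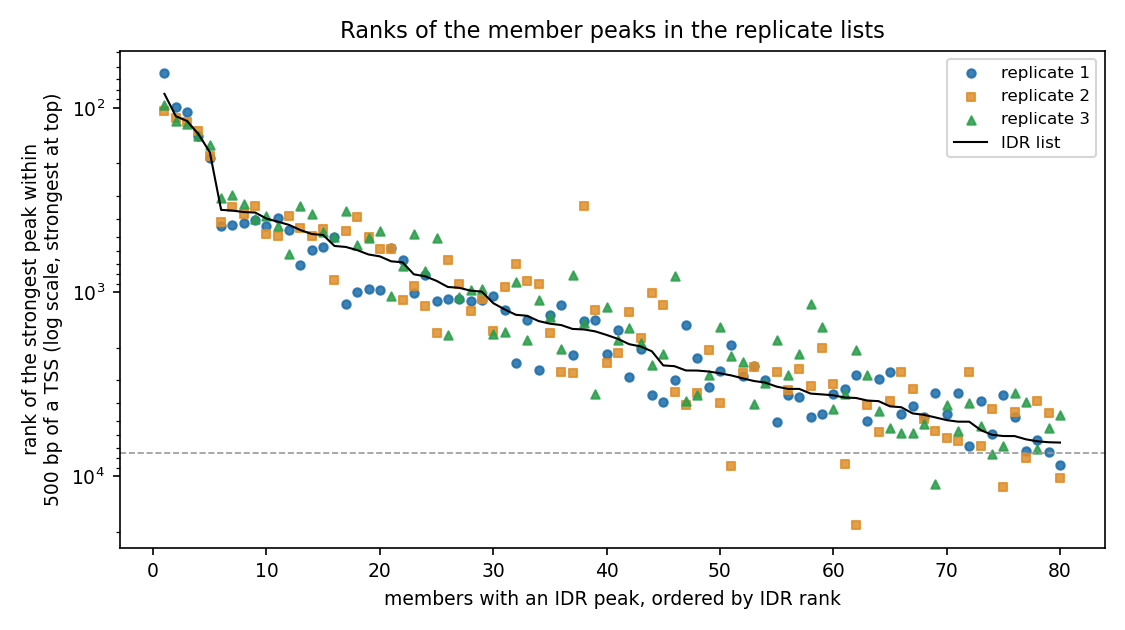
Rank of the strongest peak within 500 bp of a TSS in each replicate list, on a log scale with the strongest at the top, for the 80 members with an IDR peak in order of IDR rank; the line is the IDR list and the dashed line marks rank 7477. The 3 replicates lie close together for the first members and spread widely toward the weak end; RpS19b had no peak in replicate 2 and has no point there.

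Summits at ribosomal protein genes lay closer to the start site than at other genes. The median position was 57.5 bp upstream, against 99 bp upstream over all genes with an IDR peak. Among the 7477 strongest peaks of each replicate it was 55.8 ± 19.0 bp upstream for members and 96.8 ± 4.80 bp for all genes (SD, n = 3). The member values were 64.5, 69 and 34 bp in replicates 1, 2 and 3. The summit lay within 100 bp of the start site at 52 members, or 65.0%, against 48.8% of all genes. It lay upstream at 65 members (81.3%), against 89.4% of all genes, and downstream at 14.

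**Figure D3:**
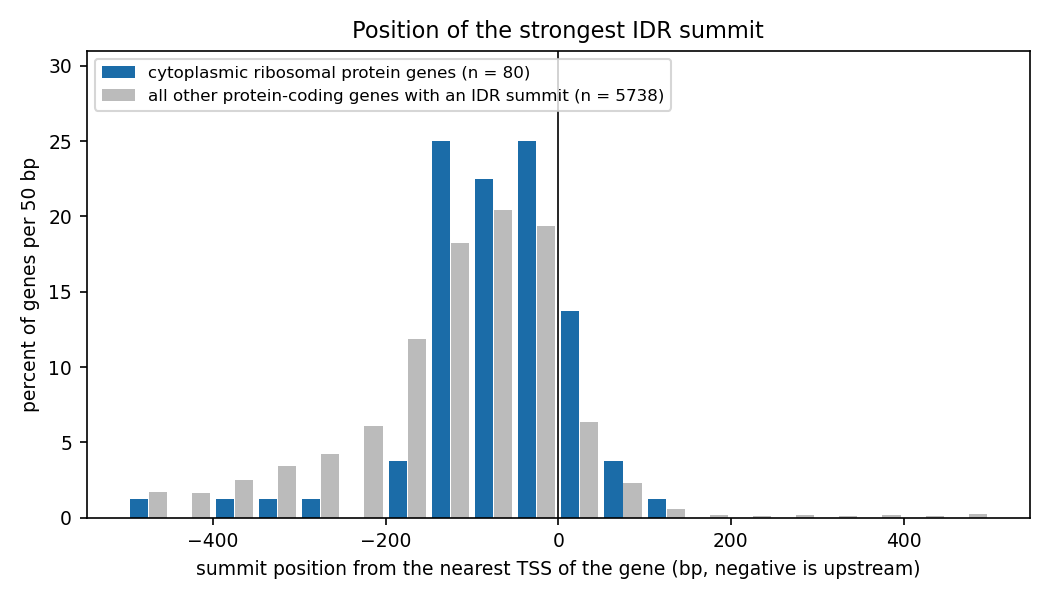
Share of genes by the position of the strongest IDR summit relative to the nearest TSS of the gene, in steps of 50 bp, for 80 ribosomal protein genes and for 5738 other protein-coding genes with an IDR summit; negative is upstream. Both groups are highest just upstream of the TSS, and few member summits lie more than 200 bp upstream.

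A peak was shared with a neighbouring protein-coding gene at 37 of the 80 members, or 46.3%, beside 58.3% of all genes with an IDR peak. At 36 of the 37 the neighbour is on the opposite strand. At 9 members the neighbour's start site was the nearer of the 2. The shared peaks were the stronger ones, with a median rank of 821 for the 37 shared and 3038 for the 43 unshared. Over all genes with a peak the same medians were 2337 and 3392.5. Position differed likewise: shared summits lay a median 98 bp upstream of members and unshared ones 25 bp, against 117 and 71 bp over all genes. Of the 40 stronger member peaks 26 were shared and 3 were downstream, and of the 40 weaker ones 11 were shared and 11 downstream. More than 1 IDR peak within 500 bp of a start site was found at 12 members. The part of the neighbouring gene in these results was not tested.

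In the 6 pairs with a known main copy, the second copies included 2 of the 5 strongest member peaks, those of RpS28a and RpS15Ab, and also RpL10Aa and RpS10a, which had no IDR peak. All 6 main copies and 4 of the 6 second copies had an IDR peak. Among the strongest peaks of replicates 1, 2 and 3, there were 4, 3 and 4 second copies, against 6, 5 and 6 main copies. Over the 6 pairs the second copy had the stronger IDR peak in 3, the weaker in 1 and none in 2. The pairs described below are 5 of these 6.

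RpS28a and RpS15Ab had far stronger peaks than their main copies. RpS28a had a signal of 4212 at rank 118, against 243.0 at rank 4216 for RpS28b, a ratio of 17.3. In replicates 1, 2 and 3 RpS28a ranked 106, 119 and 122, against 4580, 2701 and 5849 for RpS28b. RpS15Ab had 3323 at rank 139, against 288.2 at rank 3352 for RpS15Aa, a ratio of 11.5. The replicate ranks were 142, 134 and 143 for RpS15Ab, against 3609, 3387 and 2818 for RpS15Aa. In these 2 pairs the second copy ranked stronger than the main copy in each of the 3 replicates. The peaks of RpS28a and RpS15Ab were shared with Axn and Lsm10.

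RpS19b, RpS10a and RpL10Aa had a weaker IDR peak than their main copies or none. RpS19b, a copy known for its expression in the germ line, had 304.6 at rank 3098, against 560.7 at rank 982 for RpS19a, a ratio of 0.543. RpS19b ranked 3018 and 3108 in replicates 1 and 3 and had no peak in replicate 2, against 1122, 1264 and 971 for RpS19a. The summit counted for RpS19b was 341 bp upstream of it but 41 bp upstream of CG5854. RpS10a had no IDR peak, against 502.3 at rank 1241 for RpS10b, whose replicate ranks were 1246, 936 and 1646. RpL10Aa had no peak in any list, against 441.6 at rank 1595 for RpL10Ab, whose summit was 369 bp upstream of it and 207 bp upstream of CG5946. RpL10Ab ranked 1433, 342 and 1475 in replicates 1, 2 and 3. The rank in replicate 3 is that of another summit close to the start site, and the replicate 3 summit within 100 bp of the IDR summit ranked 9617.

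The 2 pairs in which neither gene was classed as the main copy differed less in signal. RpL34a had 790.0 at rank 490 and RpL34b 912.1 at rank 399, both with summits 121 bp upstream. RpS14a had 403.8 at rank 1918 with its summit 151 bp upstream. Its tandem neighbour RpS14b had 271.9 at rank 3632, with its summit 25 bp upstream.

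**Figure D4:**
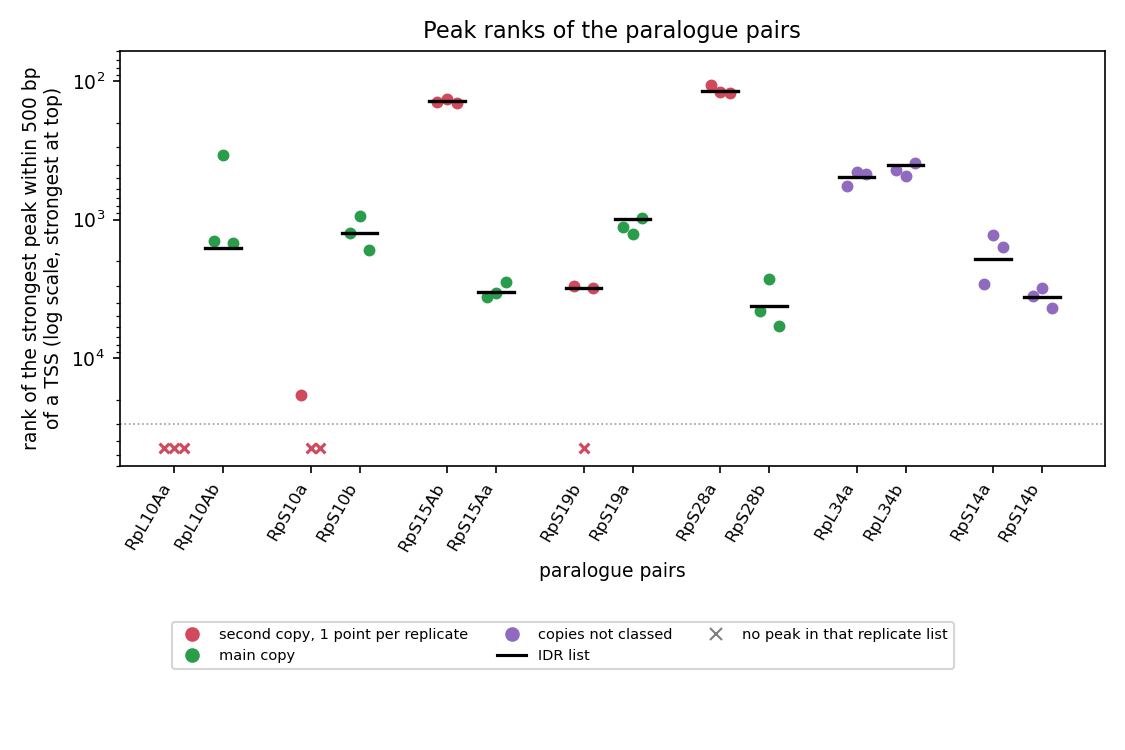
Rank of the strongest peak within 500 bp of a TSS for each copy of 7 pairs, on a log scale with the strongest at the top; points are the 3 replicate lists, bars the IDR list, crosses below the dotted line mark replicates without a peak, and the dotted line is the list length of 30000. RpS28a and RpS15Ab lie above their main copies in every replicate, while RpL10Aa has no peak and RpS10a has 1 in a single replicate.

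The start sites of the pairs differed in the polypyrimidine initiator, here CTTTC or CTTTT on the sense strand beginning within 10 bp of an annotated TSS. It was present at 72 of the 86 members, or 83.7%, against 4 of 73 mitochondrial ribosomal protein genes (5.48%) and 9.54% of all protein-coding genes. All 6 main copies had it and 1 of the 6 second copies did. The contrast depended on the reach: within 5 bp of a TSS 3 main copies and 1 second copy had it. Within 20 bp 6 main and 2 second copies did. Over all members the counts were 55 (64.0%) at 5 bp and 79 (91.9%) at 20 bp, against 5.13% and 17.7% of all protein-coding genes. Besides second copies, members without CTTTC or CTTTT at the 10 bp reach included RpL12, RpL17, RpL26, RpL34a, RpS2, RpS12, RpS20 and sta. At RpL34a and RpS20 the annotated TSS nevertheless lies in a run of pyrimidines, one that holds neither of these strings. Lacking the strings is therefore not the same as lacking a pyrimidine run. The sequences below run from 10 bp before to 14 bp after the TSS on the sense strand of dm6, with each CTTTC or CTTTT in capitals, and are shown so that the copies can be compared.
RpS28a, chr3R:30022634-30022658, minus strand: actcacagcttcaaattcaaatctt
RpS28b, chrX:9554613-9554637, plus strand: ccgataaccgctcaacttcCTTTTt
RpS19b, chr3R:23933516-23933540, minus strand: ccaatcgtccattttgactaaagtc
RpS19a, chrX:16637884-16637908, plus strand: ttcacgcgccttgttCTTTTttccg
RpS10a, chr3R:27652750-27652774, plus strand: ttcggtaaatactaatttaagctgg
RpS10b, chrX:19598030-19598054, plus strand: tgtcatcccttccgtttccCTTTCt
RpL10Aa, chr3R:15037356-15037380, plus strand: tacatttcaaattttgtgcttgtag
RpL10Ab, chr3L:11822841-11822865, plus strand: aaccgattttcacttcCTTTCtaaa
Of the 72 members with the initiator 69 had an IDR peak, with a median rank of 1708. Of the 14 without CTTTC or CTTTT there 11 did, with a median rank of 2096.

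The 8-mer CTGCCAAC, printed in capitals above, was carried by some strong member peaks and by no weak one. At other promoter peaks it was likewise found mainly at strong ranks. The search covered both strands up to 100 bp from the summit. Away from members it occurred, within 50 bp of the summit, in 96 of the 200 strongest IDR peaks (48%) and in 53 of the other 7185 (0.738%). It was found at 4 of the 80 members (5%), among them RpL23, RpL28 and RpS15Ab, against 3.75% of 4030 other IDR peaks at promoters and 1.50% of promoter windows of the same length over all protein-coding genes. Here and below, these promoter windows were centred 100 bp upstream of the most upstream TSS of each gene and not on a summit. Among the 748 strongest IDR peaks, 4 of 22 member peaks (18.2%) and 121 of 518 other promoter peaks (23.4%) had the 8-mer. After that rank none of 58 member peaks and 30 of 3512 others (0.854%) had it. Some of the 200 peaks from which the 8-mer was chosen are among these other promoter peaks. The shares of other promoter peaks at strong ranks and over all 4030 are therefore raised by the choice. Neither RpS28b nor RpS15Aa carried the 8-mer.

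RpS28a and RpL41, which are among the 5 strongest member peaks, lack the 8-mer. The closest match within 100 bp of the summit differed from it at 1 base in both, as it did at 17 of the 80 members (21.3%). These 17 also included weak peaks, such as RpL4 at rank 6530 and RpS28b at rank 4216. Having at least 1 such site thus does not set RpS28a apart from its main copy. No share of other promoter peaks with such a match is given, so the 17 have no background to be read against. Positions are counted from 1 at the 5′ end of CTGCCAAC, and of equal matches the one nearest the summit is given. The change was A7C at RpS28a, 2 bp from the summit, and A7G at RpL41, at the summit. At RpS28b it was T2A, 62 bp from the summit. The last 7 letters TGCCAAC were examined after RpS28a had been seen to lack the 8-mer. The printed sequence of RpS28a holds these 7 letters at both runs of capitals, each differing from the 8-mer only at base 1. Within 100 bp of the summit TGCCAAC occurred at 6 members (7.5%), among them RpL23, RpL28, RpS28a, RpS15Ab and sta, against 6.55% of other promoter peaks and 3.97% of all promoter windows. A match is a description of the letters and does not show that Trem binds there.

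Of the known promoter motifs, the DRE was found at a higher share of member peaks than of other promoter peaks, and the E-box and GAGA motif at a lower share, with no test made. The search again covered both strands up to 100 bp from the summit. The DRE core TATCGATA, in capitals in RpL28, RpS25 and RpL27, occurred at 19 members (23.8%), against 14.4% of other promoter peaks and 7.37% of all promoter windows. They included RpL28, RpS15Ab, RpL41, RpS25, RpL19, RpL34a, RpS29, RpS13, RpS30, RpS10b, RpL27, RpL36, RpS14a, RpL26, RpS12, RpS15Aa, RpL39 and RpS24. The median rank of the 19 was 948, against 2500 for the members without the DRE. The same medians over other promoter peaks are not given, so this contrast cannot be assigned to the members. At 50 bp from the summit the DRE was found at 9 members (11.3%), against 8.93% of other promoter peaks. At 200 bp it was found at 24 (30.0%), against 19.8%. The Motif 1 core GGTCACAC occurred at 9 members (11.3%), among them RpL30, RpL7, RpL37A, RpL27, sta, RpS19b, RpS23 and RpS15, against 11.3% of other promoter peaks and 3.74% of all windows. The E-box CAGCTG occurred at RpS27, RpLP0, RpS21, RpS16 and RpS14b, or 6.25%, against 15.3% of other promoter peaks and 11.6% of all windows. The GAGA motif GAGAG occurred at 6 members (7.5%), among them RpLP1, RpL13, RpL29, RpL40 and RpL4, against 16.5% of other promoter peaks and 22.1% of all windows. At least 1 of these 4 motifs was found at 38 members (47.5%), against 46.5% of other promoter peaks. RpL27 carried both the DRE and Motif 1, on opposite sides of the summit in its printed sequence.

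**Figure D5:**
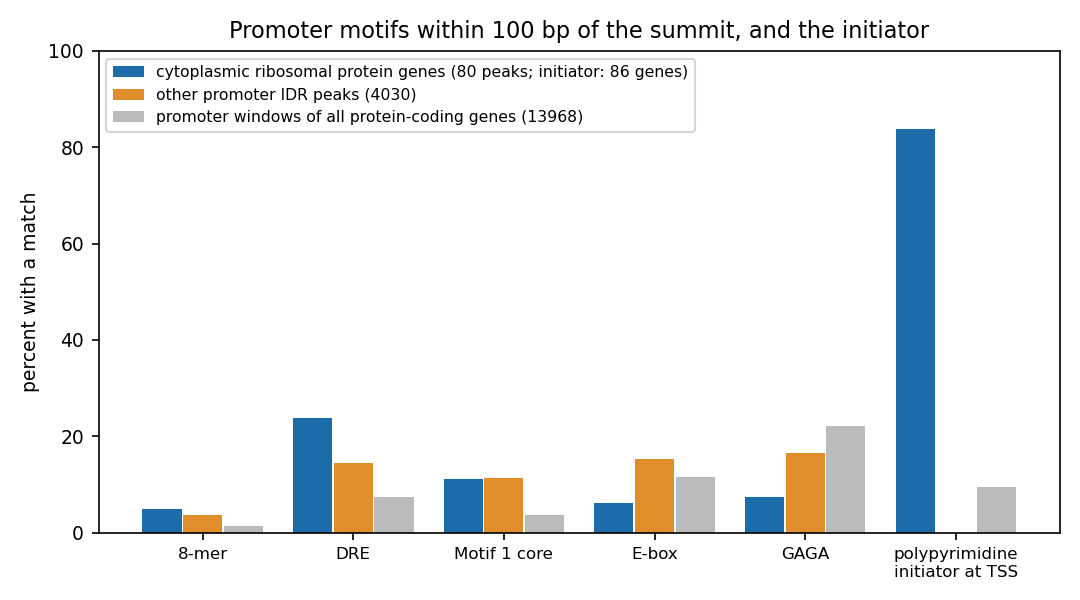
Percent of windows that hold each motif, within 100 bp of the summit for 80 member peaks and 4030 other promoter IDR peaks. The promoter windows of 13968 protein-coding genes have the same length and are centred 100 bp upstream of the most upstream TSS. The last bars give the polypyrimidine initiator at the TSS for 86 members and all protein-coding genes, with no value for other peaks. The initiator stands out at 83.7% against 9.54%, the DRE is higher in member peaks at 23.8% against 14.4%, and the E-box and GAGA motif are lower.

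Mitochondrial ribosomal protein genes, whose proteins serve a different ribosome, gave a contrast within the same lists. Cytoplasmic genes had an IDR peak at 93.0%, against 84.9% of the 73 mitochondrial genes. The median rank was 1751 for the cytoplasmic and 2768.5 for the mitochondrial genes. Among the 7477 strongest peaks of each replicate it was 2101, 1619 and 1680 for the cytoplasmic genes. For the mitochondrial ones it was 2755, 2125.5 and 2681. The cytoplasmic genes ranked stronger in each of the 3 replicates. Summits lay a median 57.5 bp upstream of cytoplasmic and 83.5 bp upstream of mitochondrial genes. Peaks were shared with a neighbouring gene at 46.3% of the cytoplasmic and 82.3% of the mitochondrial genes with a peak.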

How the data were processed

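The authors deposited narrowPeak lists on dm6. Per the file lists deposited with the samples, peaks were called against a control for each replicate and for the 3 replicates pooled, with the IDR list made from those lists. The aligner and the peak caller were not given in the sources used here. Deposited signal values were compared only within a list. The deposited −log10 q-value was tied at 4.21 over all IDR peaks and was not used. Read depth is unknown, so no counting interval is given.

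Summits were assigned to Ensembl release 115 (BDGP6.54) genes with Python 3.11.15, pandas 2.3.3 and numpy 2.4.6, and sequence came from RefSeq's dm6 genome. Of each replicate list the 7477 strongest peaks were used for shares and for median ranks and positions over genes. The ranks of single genes come from the whole lists. The calculation was tested on simulated peaks. Around 78 of the 80 member summits every stretch of 36 bp within 100 bp was unique in the assembly, and around RpL17 and RpL7A 93.4% were. With 1 group no test was made, and SDs are over the 3 replicates. The labels call the replicates biological and do not describe the embryo collections.

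The members, the pairs, the motifs and the alternatives were chosen with earlier results of these data known. Main and second copies were assigned from what is known of their expression. Genes named with values are those of the pairs, those without an IDR peak, the 10 strongest and 5 weakest, the 2 nearest to the window limit on each side and the 3 with the widest replicate ranks; others are given for their roles, by range or in motif lists. Some genes that this rule takes are not reported here, though counts over the members include them.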

Additional observations from a re-analysis of the deposited data

How the results depend on the processing

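Of 57 values recomputed under an alternative setting 52 stayed within 1.5 times the count or within the replicate spread of the value given above, and 5 did not. The number of ribosomal protein genes with an IDR peak was 78 with a TSS window of 250 bp, 81 with 1000 bp, where RpL35 was added, and 61 in the stronger 3738 IDR peaks. The median rank of member peaks was 1241 in those stronger peaks, as fewer weak peaks remain by construction. On leaving out each replicate, which kept only IDR peaks found among the strongest of both others, it lay between 1436 and 1547.5, with 67 to 72 members left. The ranks still include the replicate left out. Counting a gene only where no other gene's start site was nearer, a choice made after seeing the data, left 71 members, 5 main copies and 2 second copies. The shares of all protein-coding genes at these alternative settings are not given, so these gene counts have no background to be read against. At 50 bp on each side of the summit at least 1 of the 4 known motifs was found at 17 members (21.3%), against 26.8% of other promoter peaks. At 200 bp it was 51 members (63.8%), against 71.6%. The member share was thus the lower one at both of these settings. The 8-mer stayed at 4 members on leaving out any replicate and at 50 bp, and was at 5 with 200 bp. No paired analysis was possible because all samples belong to 1 group.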

Other observations

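Genes with ribosomal protein names outside the symbol rule were examined as well. Of 7 protein-coding genes whose symbol has a hyphen after such a name 4 had an IDR peak. RpL24-like and RpLP0-like, homologues of ribosome assembly factors, had signals of 458.6 at rank 1476 and 397.9 at rank 1981, and RpL7-like had 360.7 at rank 2348. RpL37-1, by its symbol a gene of the ribosomal protein RpL37 that the rule does not take, had 356.8 at rank 2397. RpL22-like, RpL37-2 and RpS28-like had no IDR peak.

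Many ribosomal protein genes host small nucleolar RNA (snoRNA) genes in their introns, whose products guide the modification of ribosomal RNA. At least 1 annotated snoRNA gene lay within 29 of the 86 members (33.7%), 76 snoRNA genes in all, against 0.601% of all protein-coding genes. Of the 29 host genes 27 had an IDR peak, with a median rank of 2525, and of the 57 members without a snoRNA gene 53 did, with a median rank of 1585.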
